A study of Mus musculus with 16 samples.

Results

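The LIF receptor, Jak and Stat genes were chosen by name, and the peaks of 6 deposited ChIP-seq lists were collected at their start sites (2500 bp on each side, GRCm38) and over their bodies. They are 10 of the 26180 gene symbols with a curated RefSeq start site: the receptors Lifr, Il6st, Il6ra and Lepr, the kinases Jak1, Jak2 and Tyk2, and the transcription factors Stat3, Stat5a and Stat5b. The lists mark the histone modifications H3K4me3 and H3K27me3 and the protein Suz12 in 2 cultures of R1 mouse embryonic stem cells (ESCs) of a MycER line. LIF-ESCs were grown with 100 units per ml of LIF, and Myc-ESCs without LIF and with 50 nM 4-hydroxytamoxifen (OHT). OHT activates a Myc fused to the hormone-binding part of the estrogen receptor. This Myc is a mutant in the paper's main MycER line, and no mutation is stated for its other clone. Both cultures were kept without feeders in the same serum medium with vitamin C. MycER lines are single clones, and the clone behind the ChIP-seq libraries was not given in the sources used here.

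LIF binds Lifr, which pairs with gp130 (the product of Il6st). The Jak kinases bound to the receptors then phosphorylate Stat3, which enters the nucleus, and this chain sustains self-renewal of mouse ESCs in LIF. Il6ra binds interleukin-6 and also pairs with gp130, and Lepr is the leptin receptor. Stat5a and Stat5b are close relatives that act downstream of growth hormone, prolactin and other cytokines. H3K4me3 marks start sites of active and poised genes. H3K27me3 is written by the Polycomb complex PRC2, of which Suz12 is a core subunit, and a start site with both histone marks is called bivalent. PRC2 is found mostly at CpG islands, stretches rich in CpG dinucleotides.

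Each antibody was used on 2 libraries per culture, which with 4 inputs makes 16 libraries, but only 1 peak list stands for each culture and antibody. The lists hold no read counts, so depth is unknown, no value has a replicate error and no difference was tested. The H3K27me3 lists are of unequal length, with 16717 peaks for Myc-ESCs against 3120 for LIF-ESCs. The Suz12 lists hold 13907 and 11305, and the H3K4me3 lists 30345 and 32469. The score of a peak is 10 times the negative log10 of its p-value, with 50 as the lowest score in these lists, and it ranks peaks only within a list. As a check on the cell type, 7 of 7 ESC marker genes and 6 of 6 markers of differentiated lineages carried H3K4me3 in both cultures. That mark, which 61.0% of all genes had in both, therefore did not separate the sets. Of the ESC markers, 6 had neither Polycomb mark, and Esrrb had Suz12 in both cultures and H3K27me3 in Myc-ESCs. All 6 lineage markers carried Suz12 in both cultures, beside 12.1% (LIF-ESCs) and 14.6% (Myc-ESCs) of all genes. Their H3K27me3 was less uniform: Sox17, Pax6 and Cdx2 had it in both cultures, T and Gata6 only in Myc-ESCs and Fgf5 only in LIF-ESCs. The shares of all genes with H3K27me3 were 3.82% (LIF-ESCs) and 10.7% (Myc-ESCs).

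Sequences of 3 kinds are printed here to describe places named in the report. Whether sequence bears on the differences between the cultures was not tested, and shares for other genes and peaks are given further below. The first pair shows the 250 bases before each of the 2 start sites of Lifr (RefSeq, GRCm38, plus strand), with CpG dinucleotides in capitals. The upstream start kept H3K4me3 in both cultures and the downstream start, inside the first intron of the longer transcripts, had it only in LIF-ESCs.
Lifr upstream start, chr15:7129322-7129571: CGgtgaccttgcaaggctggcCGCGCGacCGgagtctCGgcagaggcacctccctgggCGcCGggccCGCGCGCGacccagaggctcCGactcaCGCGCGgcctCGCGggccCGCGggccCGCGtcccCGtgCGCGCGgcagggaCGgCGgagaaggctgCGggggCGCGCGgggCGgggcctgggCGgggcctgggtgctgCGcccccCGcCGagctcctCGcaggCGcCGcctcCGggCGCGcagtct
Lifr downstream start, chr15:7140292-7140541: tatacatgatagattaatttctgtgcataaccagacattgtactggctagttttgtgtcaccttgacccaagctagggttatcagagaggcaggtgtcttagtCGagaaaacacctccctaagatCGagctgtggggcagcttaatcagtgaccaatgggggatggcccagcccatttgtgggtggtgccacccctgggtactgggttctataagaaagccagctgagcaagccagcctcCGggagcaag
The upstream sequence held 43 CpG and the downstream sequence 3.

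The second set shows H3K27me3 peaks that were called at member genes, read on the strand of the gene, again with CpG in capitals. The Jak1 peak is the LIF-ESC form of the only H3K27me3 peak that the members had in LIF-ESCs, and the others were called in Myc-ESCs alone.
Jak1 intron, minus strand, chr4:101263455-101263589: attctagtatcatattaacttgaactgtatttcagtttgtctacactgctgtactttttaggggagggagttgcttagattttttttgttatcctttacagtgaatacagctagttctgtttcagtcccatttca
Lepr intron, plus strand, chr4:101718167-101718293: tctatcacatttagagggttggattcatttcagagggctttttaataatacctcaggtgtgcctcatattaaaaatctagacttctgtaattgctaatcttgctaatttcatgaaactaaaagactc
Jak2 upstream, plus strand, chr19:29250294-29250475: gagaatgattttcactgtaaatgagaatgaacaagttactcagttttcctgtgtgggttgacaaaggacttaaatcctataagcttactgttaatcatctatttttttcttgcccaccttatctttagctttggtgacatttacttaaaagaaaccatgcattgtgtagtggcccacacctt
Stat5a coding exon and intron, plus strand, chr11:100861343-100861537: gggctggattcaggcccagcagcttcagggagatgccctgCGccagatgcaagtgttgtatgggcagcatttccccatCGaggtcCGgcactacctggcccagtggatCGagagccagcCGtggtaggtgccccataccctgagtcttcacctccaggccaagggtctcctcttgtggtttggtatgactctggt
Stat5b intron, minus strand, chr11:100849271-100849399: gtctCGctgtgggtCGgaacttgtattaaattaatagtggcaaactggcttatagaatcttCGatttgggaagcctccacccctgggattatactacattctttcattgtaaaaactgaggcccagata
The Jak1, Lepr and Jak2 peaks held 0 CpG, the Stat5b peak 3 and the Stat5a peak 5.

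The third set shows both matches to TTCNNNGAA, the letters that Stat proteins bind, in the part of the Stat3 gene under H3K4me3 in the LIF-ESC list only. The motif is in capitals, with the flanking bases in lower case and the minus strand shown.
Stat3 match nearer the start, chr11:100936335-100936383: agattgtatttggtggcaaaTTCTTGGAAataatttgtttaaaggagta
Stat3 match farther from the start, chr11:100934873-100934921: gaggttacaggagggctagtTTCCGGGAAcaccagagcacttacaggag
They lay 3177 and 4639 bp downstream of the Stat3 start site.

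H3K4me3 was present at the start sites of all 10 members in both cultures, as it was for 61.0% of all genes. Polycomb marks divided the members. Lifr, Il6st, Tyk2 and Stat3 had no H3K27me3 and no Suz12 peak at the start site or over the body in either culture. The other 6 genes had H3K27me3 at the start site in Myc-ESCs, against 10.7% of all genes, and of these only Jak1 had it in LIF-ESCs, where the share of all genes was 3.82%. Suz12 was called at Lepr, Jak1 and Jak2 in LIF-ESCs (12.1% of all genes), and at these 3 plus Il6ra and Stat5b in Myc-ESCs (14.6%). Of the 9 members with H3K4me3 in both cultures and no H3K27me3 in LIF-ESCs, 5 had H3K27me3 in Myc-ESCs, beside 11.9% of 15093 genes of that kind. For Suz12 it was 2 of 7 members beside 7.09% of 13073 genes. The H3K27me3 count rests on the length of the Myc-ESC list: with lists of equal length it fell to 2 members (Jak1 and Jak2), beside 3.53% of all genes, and the 5 Myc-only genes became 1, Jak2. When only peaks that scored 100 or more were kept it was 3 (Lepr, Jak1 and Jak2), beside 3.73%.

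**Figure D1:**
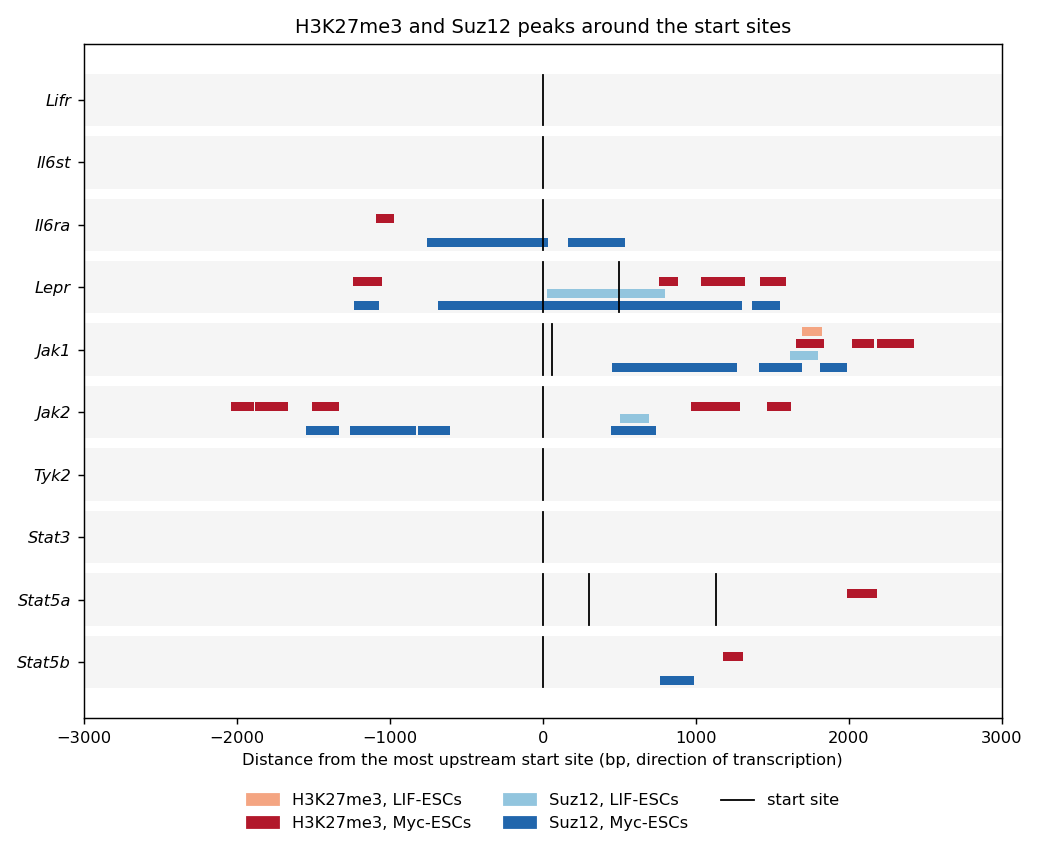
Peaks of H3K27me3 (reds) and Suz12 (blues) in LIF-ESCs and Myc-ESCs within 3000 bp of the most upstream start site of each member, with start sites as black lines. Lifr, Il6st, Tyk2 and Stat3 are empty, and the Myc-ESC rows of Lepr, Jak1 and Jak2 hold the most peaks.

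Among the receptors, Lifr and Il6st, whose products form the LIF receptor, had no Polycomb peak at the start or over the body. Distances to the nearest peak were not computed for all genes, so they only describe each member. The nearest Suz12 peak to a Lifr start lay 254837 bp away (LIF-ESCs) and 254535 bp away (Myc-ESCs). At Il6st these distances were 522139 and 114059 bp. Il6ra had its nearest Suz12 peak farther away than either in LIF-ESCs, at 551680 bp, but had 2 Suz12 peaks at the start in Myc-ESCs. The larger of these, 791 bp with a score of 310, ran from 757 bp before the start to 33 bp past it. The H3K27me3 peak of Il6ra was 118 bp long with a score of 60.9, and lay 970 bp upstream of the start, outside the gene. Both culture lists kept H3K4me3 over the Il6ra start, with lengths of 2486 bp (LIF-ESCs) and 2604 bp (Myc-ESCs).

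Lepr had the most Suz12 of the members. A single peak of 771 bp with a score of 405 crossed its second start in LIF-ESCs. In Myc-ESCs a peak of 1992 bp with a score of 1209 covered both starts, and 2 short peaks of 168 and 185 bp flanked it. In all, 771 bases around the starts lay under Suz12 in the LIF-ESC list and 2345 in the Myc-ESC list. H3K27me3 was absent from the LIF-ESC list within 403196 bp of a Lepr start. In Myc-ESCs 4 peaks of 127 to 285 bp with scores of 58.6 to 103 covered 776 bases, 1 upstream and 3 in the first intron.

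Of the kinases, Jak1 was the only member with H3K27me3 in both cultures. Its LIF-ESC peak of 135 bp with a score of 62.0 lay entirely inside a Myc-ESC peak of 184 bp with a score of 75.1, 1594 to 1777 bp downstream of a start. Another 2 peaks farther into the intron were in the Myc-ESC list alone, and H3K27me3 bases around the starts went from 135 to 567. Suz12 bases went from 188 to 1281, with the longest Myc-ESC peak, 818 bp and a score of 313, in the intron 393 bp from a start.

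Jak2 had no H3K27me3 peak within 277099 bp in LIF-ESCs and 5 at the start in Myc-ESCs, the most of any member. They covered 1036 bases, 3 upstream and 2 in the intron, and the highest score, 135, was also the highest among the H3K27me3 peaks of the members. Suz12 at Jak2 was 1 peak of 191 bp with a score of 54.1 in LIF-ESCs, close to the lowest score in the lists, and 4 peaks covering 1137 bases in Myc-ESCs. The remaining kinase, Tyk2, had its nearest Polycomb peak 32844 bp away in Myc-ESCs, and H3K4me3 at its start measured 3141 bp (LIF-ESCs) and 3313 bp (Myc-ESCs).

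**Figure D2:**
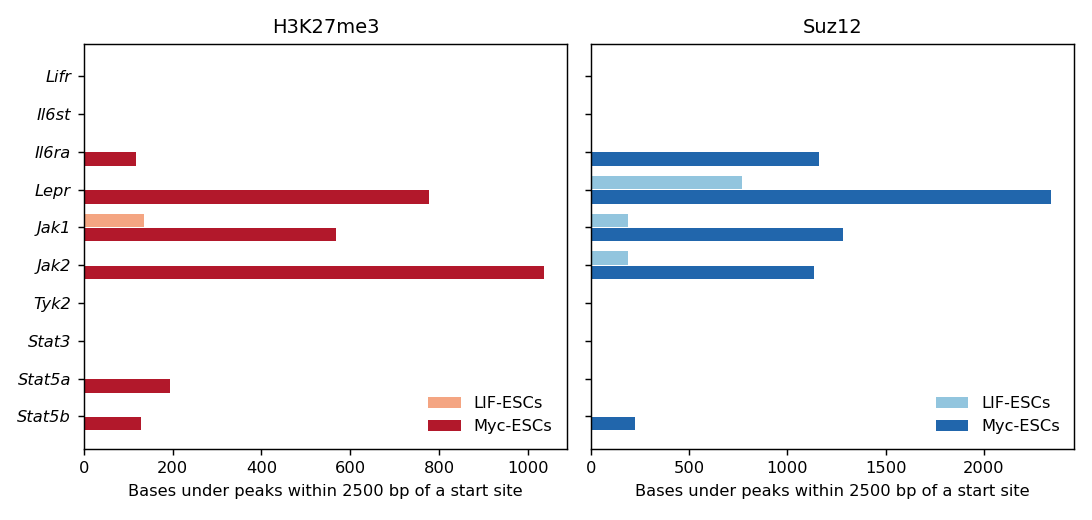
Bases under H3K27me3 peaks (left) and Suz12 peaks (right) within 2500 bp of any start site of each member, LIF-ESCs in light and Myc-ESCs in dark bars. Jak2 has the longest H3K27me3 bar, 1036 bases in Myc-ESCs, and Lepr the longest Suz12 bar, 2345 bases.

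Among the transcription factors, Stat3 had its nearest Suz12 peak 19244 bp (LIF-ESCs) and 18814 bp (Myc-ESCs) from the start, and its nearest H3K27me3 peak in Myc-ESCs 19121 bp away. Stat5a and Stat5b lie head to head, with their most upstream starts 8770 bp apart. Each had a single short H3K27me3 peak in Myc-ESCs alone. That of Stat5a was 195 bp long with a score of 63.6, 859 bp downstream of its most downstream start, and was the only H3K27me3 peak of a member in Myc-ESCs without Suz12 within 1000 bp. That of Stat5b was 129 bp long with a score of 58.1 and lay 1182 bp into the gene, with a Suz12 peak of 225 bp and a score of 72.7 between it and the start. These scores are near the lowest in the lists, and both H3K27me3 calls were lost with lists of equal length and at a score of at least 100. The Suz12 peak of Stat5b was lost only at that score.

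The members' H3K27me3 peaks were called as short stretches beside the start sites, as those of other genes were. Peak lengths, peak numbers and crossing of a start are those of the authors' calls with MACS at defaults. No other calling could be tried, since the lists hold no reads. The 15 peaks in Myc-ESCs were 118 to 321 bp long, with a median of 182 bp (166 bp over the peaks of all genes) and scores of 55.0 to 135, and 12 of them had a score under 100. They lay under H3K4me3 of the same culture in 13 cases and within 1000 bp of Suz12 in 14. In 6 cases they overlapped a Suz12 peak. No such counts are given for the peaks of all genes, so these counts only describe the members. For 0 of the 6 marked members did H3K27me3 cross a start, beside 3.84% of the 2811 genes with H3K27me3 at the start in Myc-ESCs. Suz12 crossed a start in 2 of 5 members (Il6ra and Lepr), beside 48.9% of the 3820 genes with Suz12. The median distance from a peak's centre to the nearest start was 1246 bp for H3K27me3 and 876 bp for the 13 Suz12 peaks of the members in Myc-ESCs, and 1403 and 790 bp over the peaks of all genes.

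No other gene's start site lay within 2500 bp of a member's start, so these peaks fell in the window of 1 gene. Within the marked bodies, Polycomb peaks stayed inside the start windows. Among the 6655 genes with bodies as long as the members' (25819 to 113309 bp), H3K27me3 was found over the body of 4.16% (LIF-ESCs) and 12.6% (Myc-ESCs), against 1 and 5 of the 10 members. The member missing from the second count is Il6ra, whose peak is upstream. For Suz12 the shares were 13.4% and 17.4%, against 3 and 5 members. Outside the start windows, 0 members had H3K27me3 or Suz12 over the body in Myc-ESCs, where 5.36% and 4.09% of genes of that length did.

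H3K4me3 domains at the start sites differed in length between the cultures for a few members. The length of all H3K4me3 peaks in the start windows was compared, a measure chosen after its values were seen. At Lifr, 18913 bp lay under 3 such peaks in LIF-ESCs and 4952 bp under 1 peak in Myc-ESCs, 26.2% of the LIF-ESC length (log2 −1.93). At Stat3 it was 7150 bp and 2870 bp, or 40.1% (log2 −1.32). Il6st, the partner of Lifr, kept 84.8%, with 6333 and 5372 bp. The other 7 members ranged from 99.4% (Stat5b) to 121% (Lepr), and the median of all 15958 genes with H3K4me3 in both cultures was 104%.

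A length of at most 50% in Myc-ESCs was found for 2 of 10 members (Lifr and Stat3) and for 1.85% of these genes, and a length of at least 200% for 0 members and 1.96% of genes. Both had long domains in LIF-ESCs: among the 2205 genes whose LIF-ESC length was at least that of Il6st, 11.7% were at 50% or less, 5.58% had a ratio as low as that of Stat3 and 1.09% as low as that of Lifr. At the most upstream start of Lifr alone the value was 57.1%, so its lower value comes from the second start. With the starts of GENCODE transcripts Stat3 was at 61.7%.

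**Figure D3:**
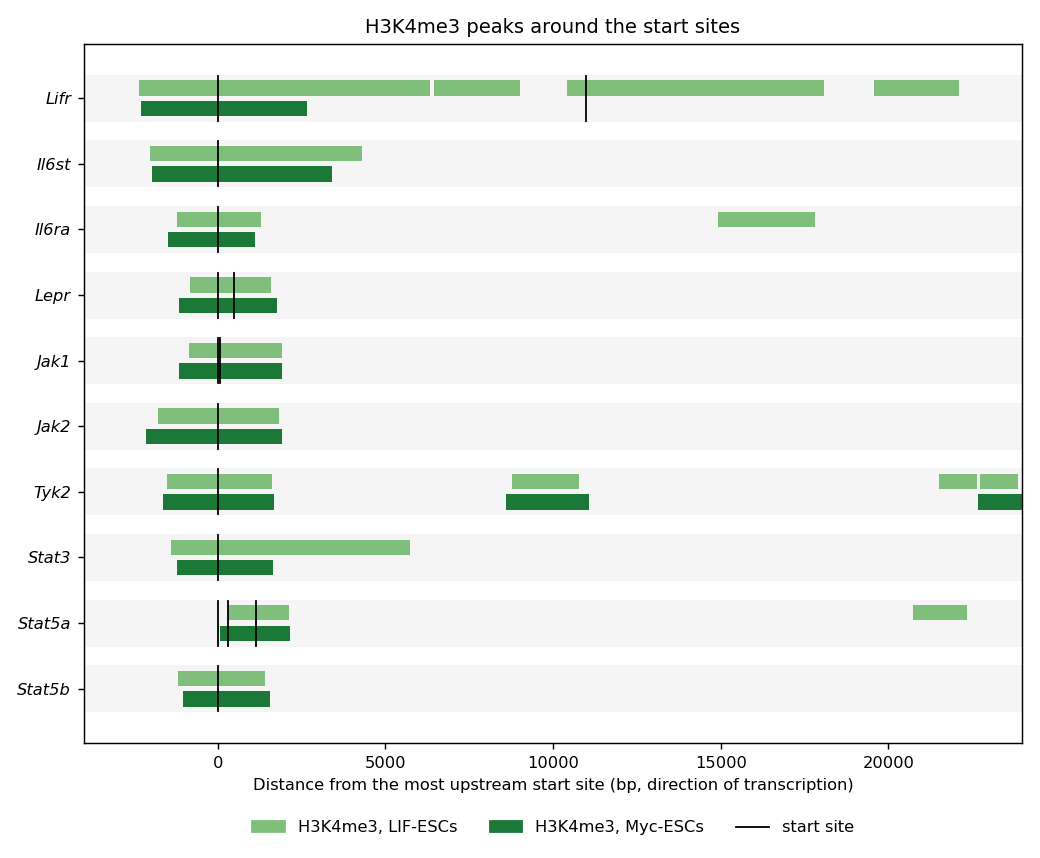
H3K4me3 peaks in LIF-ESCs (light) and Myc-ESCs (dark) from 4000 bp before to 24000 bp past the most upstream start of each member, with start sites as black lines. At Lifr the LIF-ESC peaks run past the second start, and the Myc-ESC peak ends 2665 bp past the first. At Stat3 the LIF-ESC peak ends 5740 bp past the start, and the Myc-ESC peak ends 1652 bp past it.

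The 2 start sites of Lifr parted in the same lists. The upstream start lay under an H3K4me3 peak in both cultures. The second start, where RefSeq begins 1 of its 3 curated transcripts, lay under a peak of 7682 bp in LIF-ESCs, and in Myc-ESCs the nearest H3K4me3 peak was 8305 bp away. Within the Lifr gene the stretches marked in LIF-ESCs alone measured 3658, 2555, 7682 and 2542 bp. At Stat3 the stretch marked in LIF-ESCs alone was 4088 bp long, and began 1653 bp past the start. At Il6st the largest was 897 bp.

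Other members gave smaller differences inside the body. H3K4me3 outside the start windows was found at 6 members in LIF-ESCs (Lifr, Il6ra, Lepr, Tyk2, Stat5a and Stat5b) and at 4 in Myc-ESCs (Lepr, Tyk2, Stat3 and Stat5b), beside 34.6% and 28.0% of genes of that length. Il6ra had a peak of 2873 bp, with a score of 116, only in LIF-ESCs, 14933 bp into the gene. Stat5a had one of 1601 bp and a score of 67.7 only in LIF-ESCs. Stat3 had one of 1541 bp and a score of 107 only in Myc-ESCs, 33218 bp from its start. At Stat5b the most upstream start carried H3K4me3 in both cultures, and the other 2 starts had none within 2500 bp in either.

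**Figure D4:**
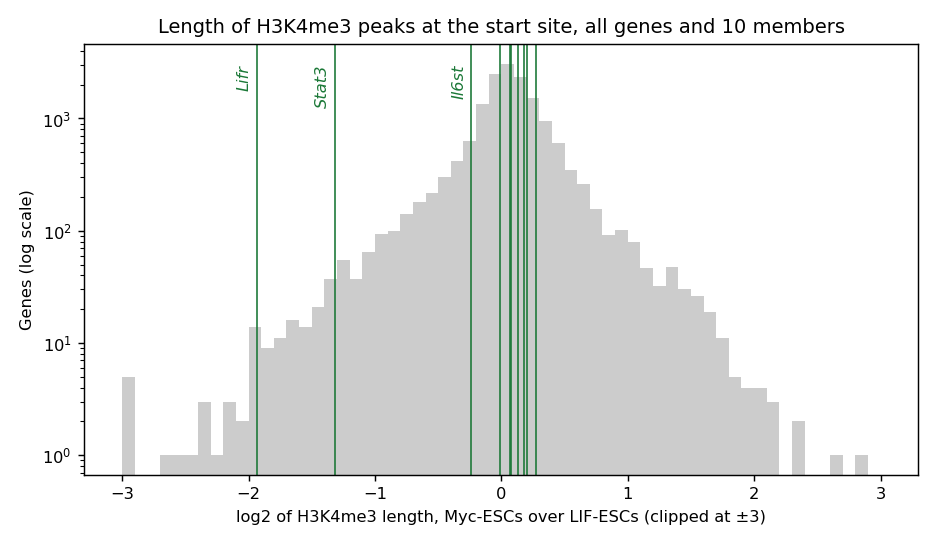
Histogram of the log2 ratio of H3K4me3 length at the start site (Myc-ESCs over LIF-ESCs) for the 15958 genes with the mark in both cultures, with the number of genes on a log axis and the 10 members as green lines. Lifr at −1.93 and Stat3 at −1.32 lie in the left tail, Il6st is at −0.24 and the 7 others lie between −0.01 and 0.27.

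A 300-base RefSeq promoter (250 bases before the start and 50 after) was found for 14 starts, with all 10 members matched. Of these, 9 were CpG-rich (observed over expected CpG of at least 0.6 and GC of at least 50%), as were 33.5% of 32841 promoters. The upstream start of Lifr had a ratio of 1.07 and its second start 0.19. Among the unmarked genes, Il6st and Tyk2 had 0.94 each and Stat3 0.55. Among the genes with Polycomb peaks, Stat5b had 1.01 at its most upstream start and 0.42 at another, Stat5a 0.80 and 0.20, Lepr 0.64 and 0.59, Jak1 0.95, Jak2 0.89 and Il6ra 0.77. High and low ratios occurred both among the genes with Polycomb peaks and among those without.

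CpG density varied among the members' H3K27me3 peaks. Of the peaks printed above, those of Stat5a and Stat5b held 25.6 and 23.3 CpG per kb and the others 0, although only 4 of the 15 in Myc-ESCs lacked CpG. Over the 15 peaks in Myc-ESCs there were 10.3 CpG per kb, beside 13.8 per kb over all peaks of that list. Their median GC was 39.3%, beside 43.4% over all peaks of that list, and the highest was 60.0% (Stat5a). The members' 13 Suz12 peaks in Myc-ESCs held 31.1 CpG per kb, beside 41.7 in the whole list. TTCNNNGAA, which reads the same on both strands, was found in 0 of the 14 member promoters and in 8.30% of all promoters. CACGTG, the E-box that Myc binds and also a palindrome, was found in 1 of 14 (Il6ra) and in 7.15%. The Stat3 stretch of 4088 bp held 2 matches to TTCNNNGAA, and 35.9% of the 15958 genes with H3K4me3 in both cultures held at least as many at the same distance from the start. Of the Lifr stretches, that of 7682 bp held 3 (41.8% of these genes held at least as many), that of 2555 bp held 1 (53.0%) and those of 3658 and 2542 bp held 0, where 67.1% and 53.5% of genes held any. A match here describes letters and not a bound site.

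Of 55 other genes of the pathway in 4 lists, all were matched. H3K27me3 at the start site was found at 9 of them in Myc-ESCs against 2 in LIF-ESCs, beside 10.7% and 3.82% of all genes. Suz12 was at 18 against 9, beside 14.6% and 12.1%. With lists of equal length H3K27me3 was at 2 in either culture, beside 3.53% (Myc-ESCs) and 3.82% (LIF-ESCs) of all genes. Suz12 was then at 17 (Myc-ESCs) and 9 (LIF-ESCs), beside 13.6% and 12.1%. With the full lists, 8 of the 55 genes had H3K27me3 only in Myc-ESCs and 10 had Suz12 only there. For each mark 1 gene had it only in LIF-ESCs. Among all genes with H3K4me3 in both cultures and without the mark in LIF-ESCs, 11.9% (H3K27me3) and 7.09% (Suz12) had it in Myc-ESCs. The 55 genes were not limited in this way, and 45 of them had H3K4me3 in both cultures. The list of 9 ligands, which includes Lif, had H3K27me3 at 1 gene in LIF-ESCs (Il11, a score of 64.5) and at 0 in Myc-ESCs, and Suz12 at 1 in both (Clcf1, named after its values were seen).

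The target genes of LIF and Stat3 in ESCs had the largest counts in Myc-ESCs of the 4 lists. Of 12, 0 had H3K27me3 in LIF-ESCs and 5 had it in Myc-ESCs (Klf5, Tfcp2l1, Gbx2, Tbx3 and Junb), beside the 10.7% of all genes. Suz12 was at 2 and 7, beside 12.1% and 14.6% of all genes. The H3K27me3 scores were 58.1 at Klf5, 70.8 at Tbx3 and 65.9 at Junb, near the lowest in the list. Gbx2 alone kept H3K27me3 with lists of equal length or a score limit of 100. Suz12 in Myc-ESCs then stayed at 7 and 6 of the 12, beside 13.6% and 11.3% of all genes. Tbx3, a transcription factor of naive ESCs, had no Suz12 peak in LIF-ESCs and 1 with a score of 3100 in Myc-ESCs. Klf4, a pluripotency factor, had none and then 5, with a highest score of 2505. Gbx2, a homeobox gene, had Suz12 in both cultures and 7 H3K27me3 peaks in Myc-ESCs alone, with a highest score of 251. For Klf5 the Suz12 score was 497, for Junb 225 and for Pim1 61.5, each in Myc-ESCs alone. Tfcp2l1 had H3K27me3 at a score of 53.8 and no Suz12.

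Of 16 inhibitors and phosphatases, H3K27me3 was at 0 in LIF-ESCs and 1 in Myc-ESCs (Socs7), and Suz12 at 1 and 4. The shares of all genes were 3.82% and 10.7% for H3K27me3, and 12.1% and 14.6% for Suz12. Socs3, the feedback inhibitor of Jak signalling through gp130, had no Suz12 peak in LIF-ESCs and 1 with a score of 3100 in Myc-ESCs, and no H3K27me3 peak within 2500 bp of a start in either list. Socs7 had Suz12 at a score of 166 and Socs2 at 96.4, in Myc-ESCs alone. Of 18 other receptors, H3K27me3 was at 1 and 3 and Suz12 at 5 and 6. Il4ra, a receptor for interleukin-4, had both marks only in Myc-ESCs, with scores of 84.8 (H3K27me3) and 61.3 (Suz12). Both Il4ra calls were lost at a score limit of 100, and its H3K27me3 call also with lists of equal length. Epor, the erythropoietin receptor, had Suz12 at a score of 93.4 only in Myc-ESCs, and Ghr, the growth hormone receptor, had H3K27me3 at 53.3 only there. Il27ra went the other way, with Suz12 at a score of 57.9 only in LIF-ESCs.

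**Figure D5:**
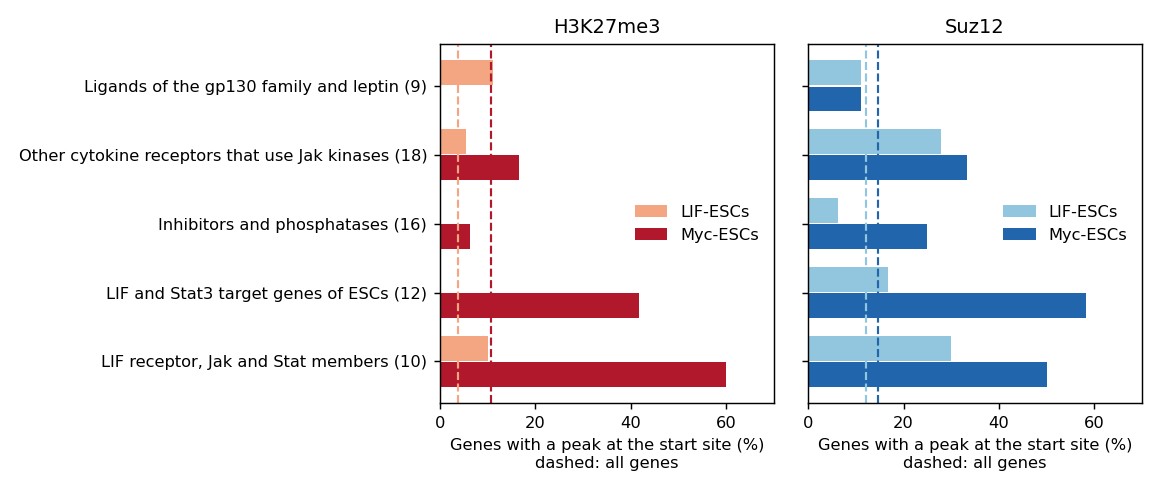
Percent of genes with H3K27me3 (left) or Suz12 (right) at the start site in LIF-ESCs (light) and Myc-ESCs (dark), for the 4 lists of pathway genes and the 10 members, with the number of genes in brackets and all genes as dashed lines. In Myc-ESCs the targets of LIF and Stat3 had H3K27me3 at 5 of 12 genes and the members at 6 of 10. With lists of equal length these counts were 1 and 2.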

How the data were processed

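ChIP-seq libraries (2 per culture and antibody, 4 inputs) came from LIF-ESCs and Myc-ESCs. One LIF-ESC input was chromatin processed without antibody and the other inputs were genomic DNA. The authors aligned reads to GRCm38 with Bowtie2 (version 2.2.3), kept unique best matches with few mismatches and called peaks with MACS (version 1.4.2) at defaults. The deposited lists give 1 score per peak, 10 times the negative log10 of the p-value, and whether libraries were pooled is not stated, so depth and replicate spread are unknown and no test was made. Start sites were those of 45756 curated RefSeq transcripts on 21 chromosomes. Peaks counted when they overlapped by at least 1 bp. H3K4me3 lengths are whole peaks that touch a start window. Intervals were compared with Python 3.11.15 (numpy 2.4.6, pandas 2.3.3, matplotlib 3.10.9), with code tested on simulated data. As alternatives, peaks scoring 100 or more, lists of equal length, windows of 1000 and 5000 bp, other transcripts and start sites, the middle of the peak in the window, an overlap of 50% of both peaks and bodies without start windows were tried. All members were named, with every gene of the pathway lists whose Polycomb call differed between the cultures. Members and lists were chosen with earlier results of these data known. Coordinates count from 1. Some items are not reported here.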

Additional observations from a re-analysis of the deposited data

How the results depend on the processing

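Counts of members at the start site changed mainly for H3K27me3. When peaks scoring under 100 were dropped, members with H3K27me3 numbered 3 in the Myc-ESC list and 0 in the LIF-ESC list, the start site as over the body, 3 were marked in Myc-ESCs only at the start, and Suz12 in LIF-ESCs was left at 1 member by either measure. With lists of equal length, H3K27me3 in Myc-ESCs was at 2 members at the start and 2 over the body, and 1 member was marked in Myc-ESCs only. For this setting only the highest scores of the longer list were kept, so fewer peaks remained by construction. A window of 1000 bp left H3K27me3 in LIF-ESCs at 0 members, since the Jak1 peak lies farther out. In Myc-ESCs this window left it at 4 members (Il6ra, Lepr, Jak2 and Stat5a), without Jak1 and Stat5b. The count of members with H3K4me3 at 50% or less was 1 with the most upstream start or the middle of the peak in the window (Lifr at 57.1%) and 1 with GENCODE M21 transcripts (Stat3 at 61.7%), an annotation tried after seeing the data. Bodies without the start windows had H3K4me3 at 6 members (LIF-ESCs) and 4 (Myc-ESCs), and H3K27me3 and Suz12 at 0 in both. With an overlap of 50% of both peaks, 1 Suz12 peak of the members was shared from either list, instead of 3 and 3. In the pathway lists, settings added after seeing the data, a score limit of 100 left H3K27me3 at 2 genes (Myc-ESCs) and 0 genes (LIF-ESCs), with Suz12 for the LIF-ESC list at 3, and for the targets of LIF and Stat3 H3K27me3 in Myc-ESCs at 1 and Suz12 in LIF-ESCs at 1. Lists of equal length left H3K27me3 in Myc-ESCs at 2 pathway genes, with 2 in LIF-ESCs as well, and at 1 target. Beside these 2 of 55 pathway genes, 3.53% of all genes had it with lists of equal length and 3.73% at the score limit. Recomputed counts stayed within 1.5 times the reported count in 105 cases. Of the values for single members, 160 stayed near the reported value and 24 moved. No paired analysis was possible because each culture and antibody has 1 list, and for the same reason no replicate could be left out. Depth is unknown, so the absence of a short peak near the lowest score does not show that a mark was absent.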

Other observations

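Several long H3K4me3 domains of other pathway genes were also shorter in Myc-ESCs, a comparison made after the values at Lifr and Stat3 were seen. Of the 12 targets of LIF and Stat3, 11 had a domain at least as long as that of Il6st in LIF-ESCs, and the median length in Myc-ESCs over the 12 was 61.3% of that in LIF-ESCs. For all 2205 genes with domains at least as long as that of Il6st the median was 84.4%. The 12 include Bcl3, whose domain in LIF-ESCs (5063 bp) was shorter than that, so the sets behind these medians are not alike. Of the 11, 3 were at 50% or less, beside 11.7% of the 2205, and Myc (7987 and 8128 bp, 102%) and Mcl1 (9748 and 9842 bp, 101%) were not shorter. Nanog, a pluripotency factor, had 15121 and 3876 bp (LIF-ESCs, Myc-ESCs: 25.6%). Klf5 had 18927 and 5037 bp (26.6%), and Tfcp2l1 7627 and 2203 bp (28.9%). Among the inhibitors, Socs3 had 9678 and 3983 bp (41.2%) and Pias2 12619 and 4639 bp (36.8%). These 5 were the only ones of 45 pathway genes with H3K4me3 in both cultures at 50% or less, where the median was 101%. Nanog and Pias2, like Lifr and Stat3, had no Polycomb peak at the start site in either culture. Klf5 (H3K27me3 and Suz12), Socs3 (Suz12) and Tfcp2l1 (H3K27me3) had Polycomb peaks there, in Myc-ESCs alone.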
